A study of Mus musculus with 16 samples.

Results

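The fatty acid desaturases and elongases followed here were 10 genes of the Scd, Fads and Elovl families, taken by symbol from the 40840 genes of a count table. They were Scd1, Scd2, Elovl6, Fads1, Fads2, Elovl5, Fads3, Elovl1, Elovl4 and Elovl7. All 10 passed the filter of at least 10 counts in total over the 16 libraries, which left 20444 genes for testing.

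Desaturases place a double bond in a fatty acyl chain, and elongases of the Elovl family carry out the first and rate-limiting step of a cycle that lengthens the chain in the endoplasmic reticulum. In the monounsaturated branch, Elovl6 lengthens palmitate to stearate, and Scd1 and Scd2, the stearoyl-CoA desaturases, convert stearate and palmitate to oleate and palmitoleate. In the polyunsaturated branch, Fads2 and Fads1, the delta-6 and delta-5 desaturases, and the elongase Elovl5 turn the essential linoleic and alpha-linolenic acids into arachidonic and eicosapentaenoic acids, and in liver many of these genes are known targets of the sterol regulatory element-binding proteins. The other members serve neither branch alone: Fads3 desaturates sphingoid bases, Elovl1 and Elovl7 act mainly on saturated chains, and Elovl4 builds the longest chains.

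RNA came from p53-/-; Myc hepatoblasts, a mouse line labelled as hepatocellular carcinoma (HCC), so the loss of p53 and the Myc transgene were shared by every group, the controls included. The cells were exposed to sorafenib, a multikinase inhibitor, at 8.5 µM, or to DMSO as the vehicle, over 48 hours or over 7 days, and each of the 4 groups held 4 libraries. Total counts per library ran from 16586254 to 30828427. The labels name 1 cell line and do not say whether the libraries of a group came from separate cultures, so p-values measure the spread between these libraries, which may be technical.

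The labelled cell type was checked first. Of the defining liver genes, Hnf4a had no count in any library and Alb had at most 1. Afp, another of the hepatoblast markers, had at most 14 and was called only at 7 days, lower with sorafenib (adjusted p = 0.0481, edgeR). Dlk1, a surface protein of hepatoblasts, had 3488 to 38122 counts. The summed normalized level of the 10 hepatoblast markers ranged over 35000.0 to 36370.0 in DMSO and 12890.0 to 14810.0 with sorafenib at 48 hours, and over 18790.0 to 20600.0 and 6899 to 7164 at 7 days. Most of that sum was Dlk1, which fell (log2 -1.63 and -2.06), whereas Sox9 (1.64 and 1.37) and Foxa2 (1.77 and 0.84), transcription factors of the early liver, rose at both times. The epithelial markers fell at both times: Krt8 (-0.69 and -1.10), Krt18 (-0.40 and -0.92), Krt19 (-0.77 and -0.52) and Epcam (-2.13 and -2.66). Epcam had at most 37 counts in any library. Krt8, Krt18 and Epcam lie in the part of the genome that was lowered in 1 library, described below. In each group 1 or 2 of the 10 were at 0 in every library. The summed level of 4 fibroblast and stellate markers was 114100.0 to 115800.0 and 124400.0 to 138200.0 at 48 hours, and 88950.0 to 93530.0 and 62960.0 to 64450.0 at 7 days, in DMSO and sorafenib respectively. That sum came from Col1a1, Col3a1 and Dcn, which encode matrix proteins, and Lrat, the marker most specific to stellate cells, was at 0 in every library. Its members moved apart: Col1a1 rose (log2 0.95 and 0.31), Col3a1 fell (-0.61 and -2.13), and Dcn rose at 48 hours (0.43) and was lower at 7 days (-2.30). The 3 leukocyte markers summed to 58.06 to 88.11 in any library, with Adgre1 at 0 throughout. The 3 endothelial markers summed to 43.01 to 75.55 in DMSO and 115.2 to 142.1 with sorafenib at 48 hours, and to 28.11 to 39.71 and 185.6 to 221.7 at 7 days, almost entirely as Kdr, while Cdh5 had at most 2 counts. The 2 adipocyte markers summed to at most 4.887. Dlk1, Sox9, Foxa2, Krt8, Krt18, Krt19, Epcam, Col1a1, Col3a1, Dcn and Kdr thus moved with the drug at both times. Hnf4a, Alb, Lrat and Cdh5 had 0 to 2 counts, too few to show a change. The leukocyte marker Cd68 had log2 fold changes of -0.03 and -0.06 and was not called. The part of these markers in the results for the desaturases and elongases was not tested. In bulk RNA, fewer cells of a type and less RNA per cell cannot be told apart. Trp53 still gave 1268 to 4799 counts per library, and Myc gave 4226 to 17797.

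Replicate 2 of sorafenib at 48 hours stood apart. In genome order, its counts dropped to 0.604 times the level of the other replicates from the gene Mycbp2 on chromosome 14 onwards, a step of -0.73 on the log2 scale, whereas the largest such step in any other library was 0.07. Genes past this place, up to the end of the listed chromosomes, took 14.4% of its counts and 21.0 to 21.7% in the other libraries. Scd1, Scd2, Fads1, Fads2 and Fads3, which all lie on chromosome 19, fell within the lowered part, and the 5 Elovl members lay outside it. For the former 5 genes the fold changes at 48 hours are given with and without this library. The Elovl members are given below with it. Without it, their log2 fold changes at 48 hours were -0.27 for Elovl5, 0.33 for Elovl1, 0.36 for Elovl4, -1.11 for Elovl6 and 2.57 for Elovl7.

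**Figure D1:**
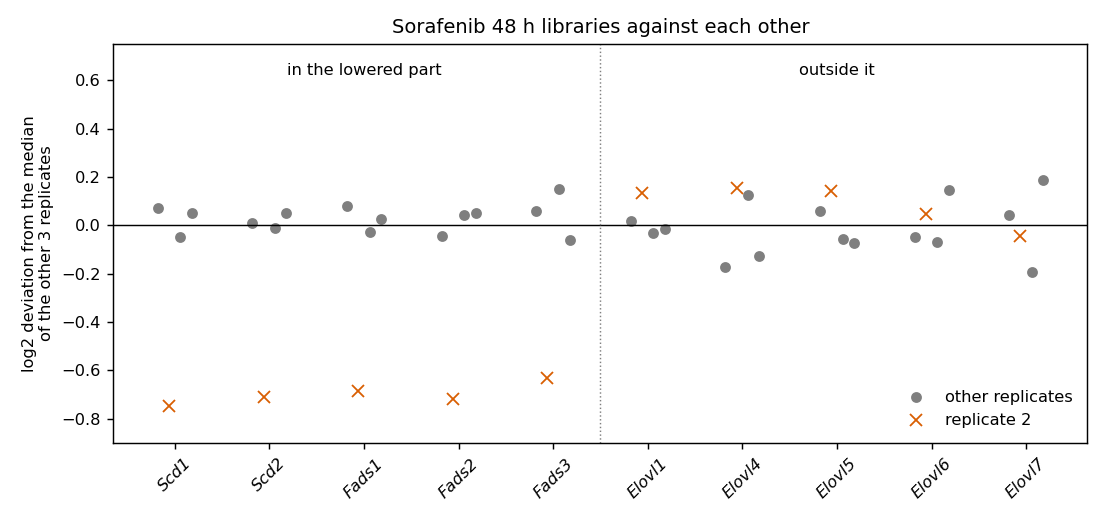
Deviation of each of the 4 sorafenib libraries at 48 hours from the median of the other 3, on the log2 scale, for the 10 genes. Replicate 2 (crosses) lay at -0.63 to -0.75 for the 5 genes on chromosome 19, and between -0.04 and 0.15 for the 5 genes outside the lowered part.

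Genome positions were taken from GENCODE M39 on GRCm39. The chromosome 19 members form a pair of clusters. Fads3 (chr19:10018253-10037928, plus strand) and Fads2 (chr19:10038130-10079203, minus strand) end 201 bases apart, tail to tail, and Fads1 (chr19:10160167-10174241, plus strand) lies 81.0 kb further on. Scd2 (chr19:44281613-44295303, plus strand) and Scd1 (chr19:44382894-44399154, minus strand) are 87.6 kb apart. The elongases are dispersed, with Elovl6 at chr3:129326004-129432144, Elovl1 at chr4:118284346-118290150, Elovl5 at chr9:77818113-77891802, Elovl4 at chr9:83660744-83688430 and Elovl7 at chr13:108350937-108423639.

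Promoters of 7 of the 10 genes were found in a table of RefSeq start sites on GRCm38.p6 as windows of 300 bases around the start, and each of those printed matched 1 place in GRCm39. Scd1, Scd2 and Fads1 had no entry. The 3 below are shown because they belong to Fads3, which rose while its neighbour Fads2 fell, and to Elovl6 and Elovl7, the elongases that fell and rose the most among the 10 genes. Capitals mark GC boxes (GGGCGG, or CCGCCC on the other strand) and NF-Y boxes (CCAAT, or ATTGG on the other strand), and the sequences run 5′ to 3′ on the gene's strand.
Fads3, chr19:10018662-10018961, plus strand: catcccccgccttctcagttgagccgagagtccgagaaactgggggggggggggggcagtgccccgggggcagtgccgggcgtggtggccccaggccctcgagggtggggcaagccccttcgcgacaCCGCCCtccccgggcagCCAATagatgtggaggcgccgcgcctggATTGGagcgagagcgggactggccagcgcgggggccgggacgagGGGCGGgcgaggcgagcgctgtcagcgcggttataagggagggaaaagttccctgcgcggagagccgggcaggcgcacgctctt
Elovl6, chr3:129325785-129326084, plus strand: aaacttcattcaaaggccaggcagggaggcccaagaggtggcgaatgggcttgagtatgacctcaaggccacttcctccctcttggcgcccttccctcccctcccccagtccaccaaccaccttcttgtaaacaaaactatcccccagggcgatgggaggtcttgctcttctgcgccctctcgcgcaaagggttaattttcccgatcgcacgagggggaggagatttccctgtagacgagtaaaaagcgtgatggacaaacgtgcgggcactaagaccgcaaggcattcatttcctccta
Elovl7, chr13:108350688-108350987, plus strand: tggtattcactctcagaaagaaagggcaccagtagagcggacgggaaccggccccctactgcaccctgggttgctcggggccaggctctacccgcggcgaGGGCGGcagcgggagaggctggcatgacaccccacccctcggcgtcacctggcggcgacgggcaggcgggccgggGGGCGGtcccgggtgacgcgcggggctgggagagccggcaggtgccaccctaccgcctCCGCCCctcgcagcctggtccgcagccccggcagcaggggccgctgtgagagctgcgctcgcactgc

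In the annotation, the Fads2 window and the 2 windows of Elovl1 lay wholly within exons. Of the 300 bases of the Elovl5 and Elovl4 windows, 229 and 122 were exonic. None of these windows is printed. In the windows printed, 130 of the 300 bases were exonic for Fads3, 81 for Elovl6 and 51 for Elovl7. Fads3 held 2 NF-Y boxes and 2 GC boxes, Elovl7 held 3 GC boxes, Fads2 held 1, and Elovl6 held none of the motifs searched. The 7 genes had 8 windows, as Elovl1 had 2. A GC box was in 6 of the 8 windows, against 36.0% of all 26527 promoters in the table and 54.4% of those of tested genes. An NF-Y box was in 4, against 37.8% and 37.5%, and an E-box (CACGTG) in 2, those of Elovl5 and Elovl4, against 7.14% and 8.95%. The core of the sterol regulatory element (TCACNCCAC, in 1.23% of all promoters), the direct repeat read by the liver X receptor (0.0113%) and the ATF4 composite core (TGATGNAAT, 0.98%) were in 0 of the 8, each searched on both strands. These matches describe letters in a window and nothing about binding.

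The first question was which of these genes responded to sorafenib at 48 hours. Each of the 10 was called, 4 higher and 6 lower, by the quasi-likelihood test of edgeR, adjusted over all genes by the Benjamini-Hochberg procedure, at a threshold of 0.05. With this test 54.6% of all genes tested were called, 26.9% higher and 27.7% lower, so that the number of members called says little by itself. The 3 monounsaturated and 3 polyunsaturated genes fell, and Fads3, Elovl1, Elovl4 and Elovl7 rose. Across members, the groups did not overlap for 10 of 10 genes, as was so for 48% of all genes (23.1% higher, 24.9% lower), and each gave the smallest p that an exact two-sided permutation test of 4 against 4 libraries allows, 0.0286.

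Scd2, by far the most abundant member, stood at normalized counts of 72680.2, 74968, 76272 and 75714 in the 4 DMSO libraries and at 43681, 26741, 43374 and 44898 in the 4 sorafenib libraries (replicates 1 to 4). All sorafenib values were below all DMSO values, and replicate 2 lay below the other 3. The fold change was 1.89-fold lower (log2 -0.92 ± 0.10 SE, adjusted p = 1.53e-07, edgeR) and log2 -0.77 ± 0.03 without replicate 2. Scd1, the isoform that dominates in adult liver, was at 6458, 6709.6, 6781 and 6742 in DMSO and at 4693, 2752, 4467 and 4622 with sorafenib. It fell 1.61-fold (log2 -0.69 ± 0.11 SE, adjusted p = 1.18e-05, edgeR), or by 0.54 on the log2 scale without replicate 2. Elovl6, which supplies their stearate, was at 5528, 5393, 5684 and 5845 in DMSO and at 2526, 2613, 2489.8 and 2792 with sorafenib. Its 4 sorafenib libraries lay together, replicate 2 included, and it fell 2.15-fold (log2 -1.11 ± 0.04 SE, adjusted p = 1.05e-14, edgeR), the largest fall of the monounsaturated branch.

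In the polyunsaturated branch, Fads2, which starts the pathway, fell the most. Its normalized counts were 15691, 15901, 15675 and 16138 in DMSO and 6266, 3918, 6453 and 6501 with sorafenib. The groups lay far apart, with a 2.74-fold fall (log2 -1.45 ± 0.10 SE, adjusted p = 1.26e-10, edgeR), and log2 -1.31 ± 0.03 without replicate 2. Fads1, the next desaturase, was at 10729, 10739, 11218 and 11132 in DMSO and at 7413, 4438, 7006 and 7136 with sorafenib. It fell 1.68-fold (log2 -0.75 ± 0.10 SE, adjusted p = 1.38e-06, edgeR), and log2 -0.61 ± 0.03 without replicate 2. Elovl5, the elongase between the pair, was at 5518, 5599, 5542 and 5378 in DMSO and at 4710.3, 4986, 4524 and 4484 with sorafenib. This was the smallest fall of any member, 1.18-fold (log2 -0.24 ± 0.04 SE, adjusted p = 1.04e-05, edgeR), yet no sorafenib library reached the lowest DMSO library.

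Fads3 and Elovl7 went the other way and by more. Fads3, the neighbour of Fads2, was at 702, 654, 666 and 722 in DMSO and at 4362, 2817, 4645 and 4182 with sorafenib. It rose 5.84-fold (log2 2.55 ± 0.11 SE, adjusted p = 4.82e-14, edgeR), and log2 2.68 ± 0.04 without replicate 2, so that even the lowered library was well above every DMSO library. Elovl7, the member with the fewest reads, rose from 27.4, 25.2, 28.6 and 21.6 to 154, 149.7, 135 and 170.4. This was a 5.93-fold increase (log2 2.57 ± 0.15 SE, adjusted p = 8.11e-12, edgeR) on raw counts of 25 to 29 in DMSO and 99 to 150 with sorafenib. Elovl1, an elongase of saturated very long chains, was at 1445, 1481, 1434 and 1549 in DMSO and at 1886, 2046, 1843 and 1865 with sorafenib (log2 0.37 ± 0.04 SE, adjusted p = 2.72e-07, edgeR). Elovl4 was at 415, 404, 410.4 and 353 in DMSO and at 481, 552, 542 and 496 with sorafenib (log2 0.39 ± 0.06 SE, adjusted p = 1.03e-05, edgeR). Both rose by under 1.5-fold, with no overlap between groups.

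**Figure D2:**
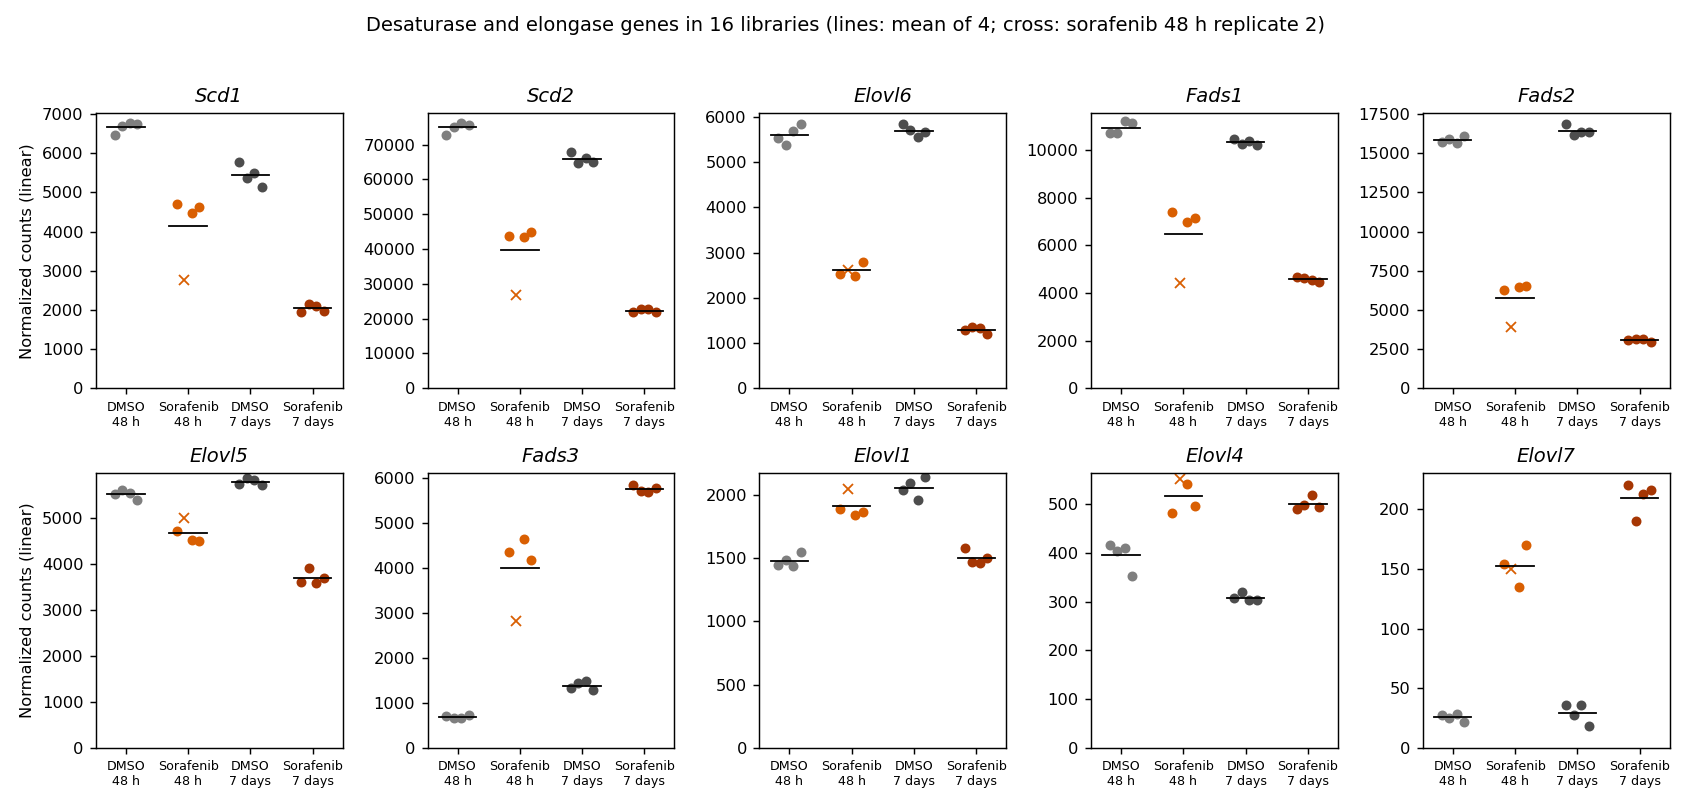
Normalized counts of the 10 genes in the 16 libraries on linear axes from 0, with each point a library, each line the mean of 4 libraries and the cross marking sorafenib 48 hours replicate 2. Scd1, Scd2, Elovl6, Fads1, Fads2 and Elovl5 step down from DMSO to sorafenib at both times, Fads3, Elovl4 and Elovl7 step up, and Elovl1 steps up at 48 hours (1477 to 1909.8 on average) and down at 7 days (2057 to 1503).

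The second question was what remained of this after 7 days. Again each of the 10 members was called, now 3 higher and 7 lower, where 56.8% of all genes tested were called, 28.9% higher and 27.9% lower. The groups did not overlap for 10 of 10, as was so for 56.8% of all genes (28.5% higher, 28.4% lower), with the permutation p at its smallest value of 0.0286 for each. The 6 genes of both branches were lower than in DMSO by 1.56-fold to 5.34-fold, Fads3, Elovl4 and Elovl7 were higher, and Elovl1 was now lower.

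At 7 days Scd2 was at 67801, 64802, 66272 and 65017 in DMSO and at 21808, 22743, 22629 and 21793 with sorafenib. The spread within each group was small beside the 2.97-fold fall (log2 -1.57 ± 0.10 SE, adjusted p = 5.47e-11, edgeR). Scd1 was at 5777, 5372, 5488 and 5150.4 in DMSO and at 1940.3, 2152, 2092 and 1963 with sorafenib (log2 -1.42 ± 0.11 SE, adjusted p = 5.66e-10, edgeR). Elovl6 was at 5853, 5715, 5563 and 5682 in DMSO and at 1290.2, 1353, 1334 and 1197 with sorafenib, a 4.41-fold fall (log2 -2.14 ± 0.04 SE, adjusted p = 6.6e-19, edgeR). The order of the 3 falls, from Elovl6 to Scd2 to Scd1, was that seen at 48 hours.

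Fads2 was at 16862, 16179, 16345 and 16359 in DMSO and at 3106, 3128, 3131 and 2940.3 with sorafenib at 7 days. This 5.34-fold fall (log2 -2.42 ± 0.10 SE, adjusted p = 6.32e-14, edgeR) was the largest of the 10 members. Fads1 went from 10485, 10266, 10395 and 10230.3 to 4673, 4646, 4566 and 4479.8 (log2 -1.17 ± 0.10 SE, adjusted p = 2.48e-09, edgeR). Elovl5 went from 5729, 5858, 5808 and 5707 to 3602, 3908, 3573 and 3694 (log2 -0.64 ± 0.04 SE, adjusted p = 4.34e-12, edgeR). The polyunsaturated genes therefore spanned from the largest to the smallest fall among the 6 genes of the branches.

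Of the other members at 7 days, Fads3 was at 1329.9, 1431, 1493 and 1282 in DMSO and at 5864, 5710.2, 5693 and 5781 with sorafenib, a 4.16-fold rise (log2 2.06 ± 0.10 SE, adjusted p = 5.92e-13, edgeR). Elovl7 rose from 35.7, 27.4, 36.3 and 18.6 to 220.5, 190.0, 213 and 216, or 7.11-fold (log2 2.83 ± 0.14 SE, adjusted p = 3.39e-13, edgeR). Elovl4 rose from 307, 320.4, 303 and 302 to 490.4, 499, 519 and 495 (log2 0.70 ± 0.06 SE, adjusted p = 2.83e-09, edgeR). Elovl1 was lower, at 2041, 2092, 1956 and 2139 in DMSO and at 1577, 1468, 1464 and 1501 with sorafenib (log2 -0.45 ± 0.04 SE, adjusted p = 1.04e-08, edgeR), so that it was the member whose direction differed between the times.

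**Figure D3:**
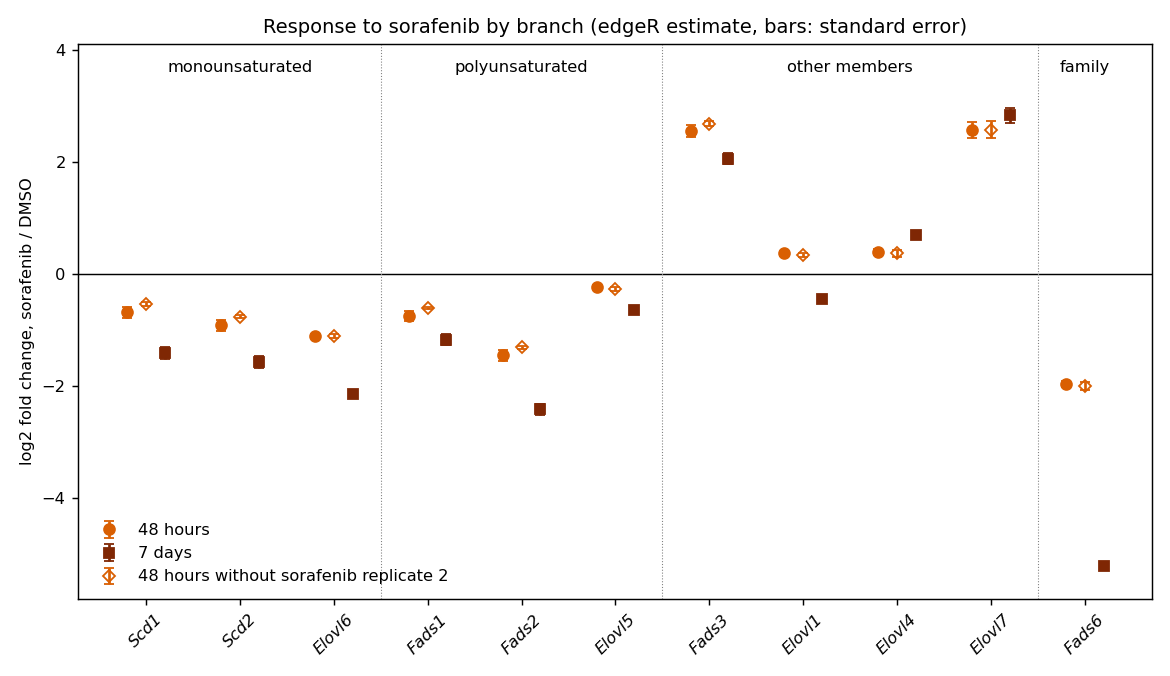
Log2 fold change of sorafenib against DMSO with its standard error, at 48 hours (circles), at 48 hours without sorafenib replicate 2 (open diamonds) and at 7 days (squares), for the 10 genes by branch and for Fads6. Both branches lie below 0 and lower at 7 days than at 48 hours, Fads3 and Elovl7 lie above 2, and Fads6 reaches -5.21 at 7 days.

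Whether the response itself differed between 48 hours and 7 days was tested as the interaction of drug and time. It was called for 9 of 10 members, 1 higher and 8 lower, where 36.8% of all genes tested were called, 15.5% higher and 21.3% lower. All 6 genes of the branches had a more negative response at 7 days, by 1.03 on the log2 scale for Elovl6 (adjusted p = 4.06e-11, edgeR), 0.97 for Fads2 (1.39e-05), 0.73 for Scd1 (0.00059), 0.65 for Scd2 (0.00105), 0.42 for Fads1 (0.0209) and 0.41 for Elovl5 (2.22e-06). Without sorafenib 48 hours replicate 2 the differences on chromosome 19 grew to -1.11 for Fads2, -0.88 for Scd1, -0.80 for Scd2 and -0.56 for Fads1. The call for Fads1 was lost on leaving out DMSO 48 hours replicate 1 or 4, or sorafenib 48 hours replicate 1, 3 or 4, with adjusted p of 0.0501 to 0.0846 and differences of -0.32 to -0.40. Elovl1 differed by -0.82 (adjusted p = 1.13e-09, edgeR) and Elovl4 by 0.31 (0.00579). Fads3 had a smaller rise at 7 days, by -0.49 on the log2 scale (0.0105, or -0.63 without that replicate). For Elovl7 the difference was 0.26 ± 0.22 SE (adjusted p = 0.401), not called.

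The DMSO cells were compared between the times as well. In DMSO, 4 of 10 members were called, 2 higher and 2 lower at 7 days, where 49.4% of all genes tested were called, 23.9% higher and 25.5% lower. Fads3 rose 2.02-fold (log2 1.01 ± 0.11 SE, adjusted p = 1.21e-07, edgeR) and Elovl1 1.39-fold (log2 0.48 ± 0.04, 8.67e-09), while Elovl4 fell by 0.36 (4.57e-05) and Scd1 by 0.29 (0.0246). The call for Scd1 was lost on leaving out DMSO 48 hours replicate 3 or 4, or DMSO 7 days replicate 2 or 4 (adjusted p 0.053 to 0.0663). The remaining 6 had differences of -0.18 to 0.20 on the log2 scale. Leaving out sorafenib 48 hours replicate 2 brought 7 calls, Scd2, Fads1 and Elovl5 added, with the differences themselves at -0.18, -0.08 and 0.07. The comparison in DMSO and the interaction share libraries with the comparisons of drug against DMSO, and are not independent of them.

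The branches were then set against each other. The median log2 fold change at 48 hours was -0.92 for the monounsaturated genes, -0.75 for the polyunsaturated genes and 1.47 for the other 4, against -0.05 for all genes tested. Without sorafenib 48 hours replicate 2 the first pair were -0.77 and -0.61. At 7 days they were -1.57, -1.17 and 1.38, against 0.02 for all genes. The polyunsaturated genes ranged from -1.45 to -0.24 at 48 hours and from -2.42 to -0.64 at 7 days, and the monounsaturated genes, from -1.11 to -0.69 and from -2.14 to -1.42, lay inside those ranges. With 3 genes in each branch, the medians describe these genes and were not tested.

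A ratio taken within a library compares the desaturases of both branches without the lowered part of replicate 2 entering, since all 4 genes lie in it. Summed normalized counts of Scd1 and Scd2 were 3.00, 3.07, 3.09 and 3.02 times those of Fads1 and Fads2 in DMSO at 48 hours and 3.54, 3.53, 3.56 and 3.63 times with sorafenib. At 7 days the ratio was 2.69, 2.65, 2.68 and 2.64 in DMSO and 3.05, 3.20, 3.21 and 3.20 with sorafenib. On the log2 scale the group means were 1.61 ± 0.02 and 1.83 ± 0.02 (SD, n = 4) at 48 hours and 1.42 ± 0.01 and 1.66 ± 0.04 at 7 days. At both times the balance lay further towards the stearoyl-CoA desaturases with the drug, with no overlap between groups. As both sums fell, this was a smaller fall of Scd1 and Scd2 together than of Fads1 and Fads2 together. It did not hold gene by gene. Of the 4 genes Fads2 fell the most, while Fads1 fell less than Scd2 (log2 -0.75 against -0.92 at 48 hours and -1.17 against -1.57 at 7 days). Between Scd2 and Fads1 the balance thus lay the other way, as did the medians of the branches.

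Within each pair the balance also moved. Fads2 exceeded Fads1 in DMSO, with a ratio of 1.45 ± 0.04 (SD, n = 4) at 48 hours and 1.59 ± 0.02 at 7 days, and lay below it with sorafenib, at 0.890 ± 0.034 and 0.670 ± 0.013. Fads3 amounted to 0.0433 of Fads2 in DMSO at 48 hours, 0.695 with sorafenib, 0.0843 in DMSO at 7 days and 1.87 ± 0.07 with sorafenib at 7 days, so that the counts of the neighbours had changed places by then. Scd2 was 11.2 ± 0.04 times Scd1 in DMSO and 9.61 ± 0.20 times with sorafenib at 48 hours, and 12.1 ± 0.4 and 10.9 ± 0.3 times at 7 days. Elovl6 and Elovl5 had nearly equal counts in DMSO (1.02 ± 0.05 and 0.988 ± 0.027), and Elovl6 dropped to 0.558 ± 0.044 and 0.350 ± 0.021 of Elovl5 with sorafenib at 48 hours and 7 days. These ratios compare counts, which also depend on gene length, so only their shifts between groups are read.

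**Figure D4:**
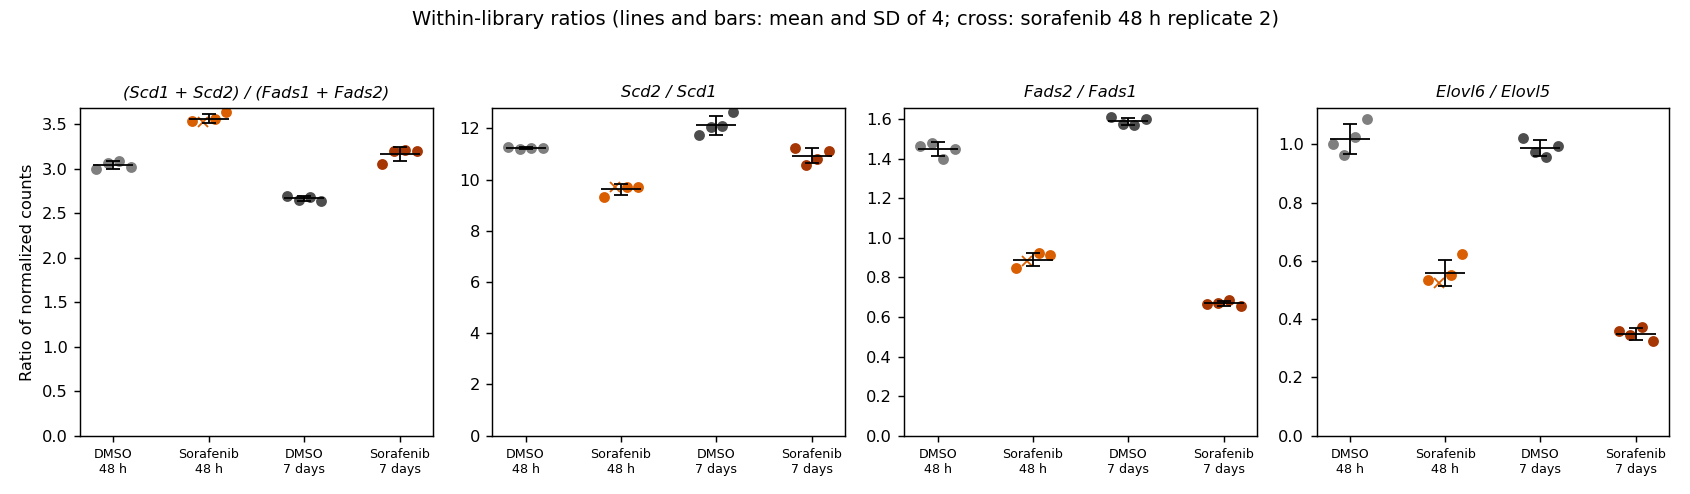
Ratios of normalized counts within each of the 16 libraries, on linear axes from 0, with the mean and SD of 4 libraries per group and a cross for sorafenib 48 hours replicate 2. That replicate lies with its group in every ratio, Scd over Fads is higher and Fads2 over Fads1 and Elovl6 over Elovl5 are lower with sorafenib at both times.

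Levels of different genes were compared as normalized counts per kilobase of exon. In DMSO at 48 hours Scd2 led at 9952 ± 210 (SD, n = 4) per kilobase, followed by Fads2 at 2427 ± 33.2, Fads1 at 1956 ± 45.9, Elovl5 at 970 ± 16.5, Scd1 at 926 ± 20.2, Elovl6 at 661 ± 23.0, Elovl1 at 272 ± 9.50, Fads3 at 151 ± 6.99, Elovl4 at 127 ± 9.17 and Elovl7 at 4.49 ± 0.54. No neighbours in this order overlapped, and DMSO at 7 days had the same order. With sorafenib at 7 days Scd2 still led, at 2955 ± 68.2 per kilobase, but Fads3 was next at 1272 ± 17.2, ahead of Fads1 at 820 ± 15.5, Elovl5 at 651 ± 26.7 and Fads2 at 471 ± 14.0. Scd1 (283 ± 14.2) and Elovl1 (277 ± 9.62) overlapped there, as did Elovl4 (160.1 ± 3.99) and Elovl6 (152 ± 8.18), and Elovl7 was last at 36.7 ± 2.38. With sorafenib at 48 hours Scd2 led at 5271 ± 1149 per kilobase (5844 ± 107 without replicate 2), and the ranges of Fads1, Fads2, Fads3 and Elovl5, with means of 1160, 886, 883 and 824, overlapped. Without replicate 2 Fads1 (1283 ± 37.1) stood clear, and Fads2 (981 ± 19.0) and Fads3 (970.3 ± 51.5) still overlapped.

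As a share of all counts in a library, the 10 genes together took 0.500% ± 0.009 (SD, n = 4) in DMSO and 0.272% ± 0.046 with sorafenib at 48 hours, and 0.446% ± 0.013 and 0.179% ± 0.003 at 7 days. Scd2 alone was 0.307% and 0.154% at 48 hours and 0.259% and 0.0888% at 7 days, and so made up most of the pool in DMSO. The lowest share with sorafenib at 48 hours, 0.203%, was that of replicate 2, and without it the 10 genes took 0.295% and Scd2 0.170%.

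Over the 15 libraries without that replicate, log2 normalized counts of the 6 genes of the branches had pairwise correlations of 0.93 to 0.999, and each of these genes had correlations of -0.96 to -0.61 with Fads3, Elovl4 and Elovl7. Since the libraries fall into 4 groups, these values mainly restate the group means. Of 10636 genes with at least 100 normalized counts on average, those most like Scd2 were H19, Gas1, Bcar3, Dag1 and Shisal1 (Pearson r of 0.9993 to 0.9986), and those most like Fads2 were Podxl, Lss, Hmgcs1, Bnc2 and Cyp51 (0.9994 to 0.9985). Lss, Hmgcs1 and Cyp51 encode enzymes of cholesterol synthesis. There were 100 genes over 0.99 for Scd2 and 91 for Fads2, and 0 of either set of 5 stayed in the first 5 when the lowered replicate was added, so these names carry little weight.

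The families hold 5 more genes. Fads6, an orphan member of the desaturase family, had the largest change of the 15 family genes at 7 days. It was at 835, 795, 802 and 775 in DMSO and at 196, 222, 199 and 206 with sorafenib at 48 hours. At 7 days it was at 1334, 1253, 1228 and 1241 in DMSO and at 32.6, 41.4, 27.1 and 34.4 with sorafenib. The change grew from 3.91-fold lower (log2 -1.97 ± 0.06 SE, adjusted p = 4.36e-16, edgeR) to 36.9-fold lower (log2 -5.21 ± 0.08, 5.4e-21), and the responses differed by -3.24 ± 0.11 (1.28e-14). Elovl2 and Elovl3 had few reads, with raw counts of 9 to 27 in DMSO and 1 to 5 with sorafenib for Elovl2, and 0 to 5 in DMSO and 5 to 14 with sorafenib for Elovl3. Elovl2 was called lower and Elovl3 higher at both times (adjusted p 1.36e-05 to 0.000205, edgeR), and no fold is given at such counts. Scd3, with 0 to 9 counts, and Scd4, with 3 to 23, were called at neither time. Leaving out sorafenib 48 hours replicate 4 brought calls at 48 hours for Scd3 (adjusted p = 0.0373) and Scd4 (0.0346), and Scd3 was called at 7 days without sorafenib 48 hours replicate 2 or 4 or sorafenib 7 days replicate 4 (0.0345 to 0.0474). Scd3 was also called at 7 days by limma voom (adjusted p = 0.0227). In edgeR it was called with only the libraries of the comparison (0.0276) and with an offset for the lowered part (0.0405).

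An elongation cycle needs 3 further enzymes after the Elovl step. Of 7 genes for the reductases and dehydratases, 1 was called higher and 3 lower at 48 hours and 0 higher and 4 lower at 7 days, with median log2 fold changes of -0.0015 and -0.52. Of all genes tested, 54.6% were called at 48 hours (26.9% higher, 27.7% lower) and 56.8% at 7 days (28.9% higher, 27.9% lower). Their medians were -0.05 and 0.02, so the number called in this list says little by itself. Tecr, the trans-2-enoyl-CoA reductase, fell at both times (log2 -0.82 ± 0.05 and -0.61 ± 0.05 SE), and Hacd3, a dehydratase, fell by 0.14 ± 0.03 and 0.54 ± 0.03. Hacd1, another dehydratase, rose at 48 hours (0.67 ± 0.07) and had -0.13 ± 0.07 at 7 days (adjusted p = 0.103, edgeR, or 0.0316 without sorafenib 48 hours replicate 2). Tecrl was called lower at 48 hours on 2 to 9 counts in DMSO and 0 to 2 with sorafenib, and that call was lost without DMSO 48 hours replicate 2 or 4 or sorafenib 48 hours replicate 1 or 3 (adjusted p 0.0505 to 0.0701).

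Desaturases draw electrons from cytochrome b5 and its reductases. Of 6 such genes, 5 were called higher and 0 lower at 48 hours, and 3 higher and 2 lower at 7 days, with medians of 0.34 and 0.29. Among all genes tested 54.6% and 56.8% were called, 26.9% and 28.9% of them higher as shares of all, with medians of -0.05 and 0.02. Cyb5r1, a cytochrome b5 reductase, rose 4.38-fold at 48 hours (log2 2.13 ± 0.04 SE, adjusted p = 4.31e-19, edgeR) and 4.11-fold at 7 days (2.04 ± 0.04, 4.6e-19). Its relative Cyb5r2 rose as well (1.66 ± 0.23 and 1.81 ± 0.17), and Cyb5r3, the main microsomal reductase, by 0.51 ± 0.10 and 0.55 ± 0.10. Cyb5r3 lies in the lowered part of the genome, and had 0.65 ± 0.03 at 48 hours without replicate 2. Cyb5b, a mitochondrial cytochrome b5, fell at 7 days (-0.55 ± 0.03) and had 0.08 ± 0.03 at 48 hours, a call that was lost on leaving out any of DMSO 48 hours replicates 1, 3 and 4 and sorafenib 48 hours replicates 1, 3 and 4 (adjusted p 0.0662 to 0.239).

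Of 12 genes that control the transcription of the pathway, 1 was called higher and 7 lower at each time, with medians of -0.17 and -0.34. For comparison, 54.6% and 56.8% of all genes tested were called, 27.7% and 27.9% lower, with medians of -0.05 and 0.02. Insig1, which holds the precursors of the sterol regulatory element-binding proteins in the endoplasmic reticulum and is itself one of their targets, fell by 1.28 ± 0.04 and 2.14 ± 0.04 on the log2 scale (adjusted p = 1.03e-15 and 6.38e-19, edgeR). Srebf2, which encodes the isoform that acts mainly on cholesterol synthesis, fell by 1.18 ± 0.09 and 1.96 ± 0.10. It lies in the lowered part, and had -1.04 ± 0.03 at 48 hours without replicate 2. Srebf1, which encodes the isoform that acts mainly on fatty acid synthesis, fell by 0.78 ± 0.03 and 0.96 ± 0.03. The gene called higher at both times was Insig2 (0.73 ± 0.05 and 0.30 ± 0.05), chosen for mention after its values were seen. Mlxipl, which encodes the carbohydrate-response factor ChREBP, was called lower at 48 hours, with 5 to 13 counts in DMSO and 0 to 3 with sorafenib, and was not called at 7 days, with 1 to 5 and 0 to 3.

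Other lists held desaturases of other lipids and the peroxisomal steps that shorten chains in the synthesis of docosahexaenoate. Of 3 other desaturases, 1 was called higher and 1 lower at 48 hours, and 1 higher and 2 lower at 7 days. Degs1, the dihydroceramide desaturase, rose by 1.03 ± 0.04 and 0.36 ± 0.04 on the log2 scale, its relative Degs2 fell by 0.66 ± 0.13 and 0.45 ± 0.12, and Tmem189, the plasmanylethanolamine desaturase, had 0.10 ± 0.06 (adjusted p = 0.183, edgeR) and fell by 0.42 ± 0.06 at 7 days. Of 8 peroxisomal genes, 2 were called higher and 1 lower at 48 hours, and 5 higher and 0 lower at 7 days, with medians of 0.05 and 0.23. Beside both lists, 54.6% of all genes tested were called at 48 hours and 56.8% at 7 days, with medians of -0.05 and 0.02. The transporter Abcd3 rose by 0.61 ± 0.03 and 0.31 ± 0.03. Acaa1a, the thiolase, had 0.09 ± 0.05 (adjusted p = 0.093, edgeR) and rose by 0.23 ± 0.05 at 7 days. Abcd2, a transporter of very long chains in the lowered part, was called lower at 48 hours (log2 -0.98 ± 0.29, or -0.97 without replicate 2) and higher at 7 days, where no fold is given, on counts of 18 to 29 and 7 to 14 in DMSO and sorafenib at 48 hours and 2 to 4 and 5 to 14 at 7 days.

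**Figure D5:**
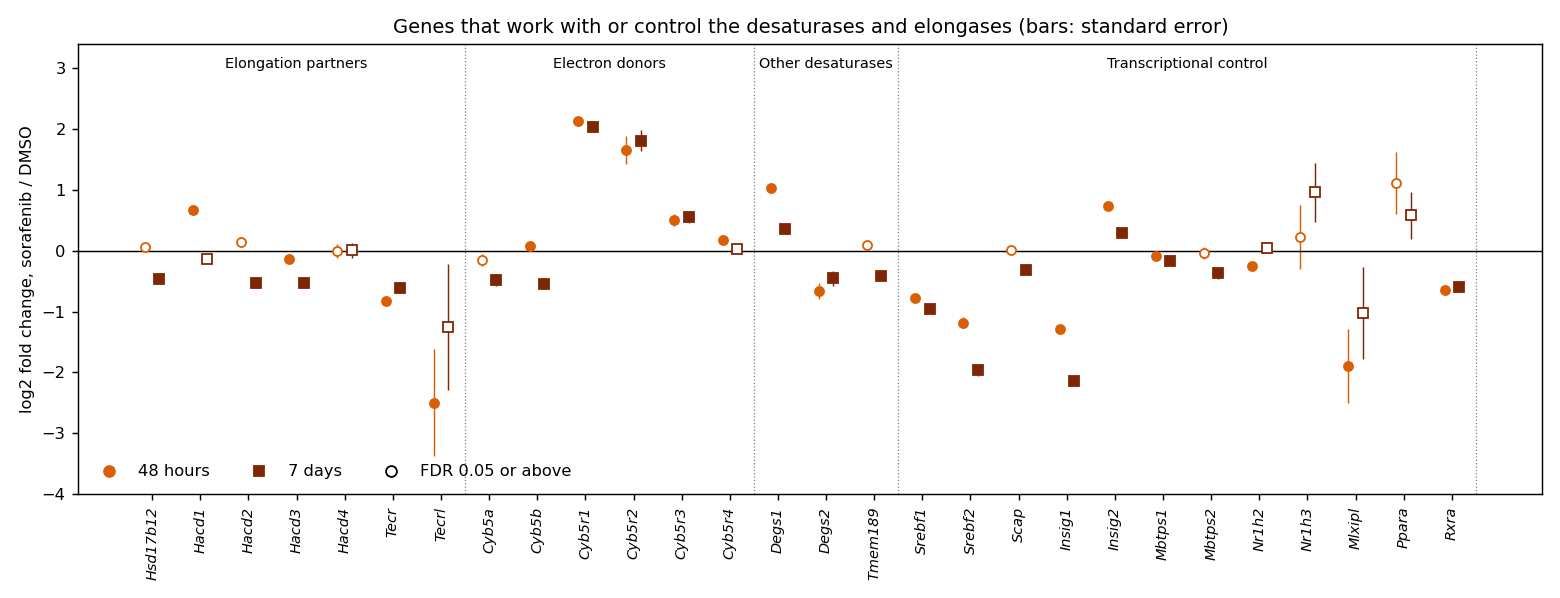
Log2 fold change of sorafenib against DMSO with its standard error at 48 hours (circles) and 7 days (squares) for the elongation partners, electron donors, other desaturases and transcriptional regulators, with open symbols for genes not called. Cyb5r1 and Cyb5r2 lie between 1.66 and 2.13, Insig1 and Srebf2 between -1.18 and -2.14, and most other genes within 1 of 0.

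Overlapping or similar genes limit a few of these values. Of the 50-base windows in the longest transcripts, 2.9% of those of Scd1 also occur in Scd2, 3.34% in Scd3, and 0.1% of those of Fads2 in Fads3, and the Elovl members share none with each other, so reads could be split in error between Scd1 and Scd2 only over a small part. Exons of Fads3 overlap those of the antisense gene Gm29917 by 611 bases, and the strand setting of the counting is not given in the sources used here. Gm29917 had 0 to 9 counts per library, and reads from the pair cannot be told apart without strand. The same holds for Elovl1 and Cdc20, a cell cycle gene with 2607 to 5747 counts that overlaps it by 53 bases, and for Elovl6 and Gm35986 (0 to 9 counts, 34 bases). Mir5114, within an exon of Scd2, had 0 counts.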

How the data were processed

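Illumina stranded mRNA libraries were sequenced on a NovaSeq. The authors deposited raw counts per gene for 16 libraries, unnormalized, without pooling. STAR 2.7.1a, featureCounts 2.0.6 and DESeq2 1.40.2 are among the tools, and GRCm39 the build, in the submitters' processing notes; the annotation is not given in the sources used here. Groups came from the sample labels. The members and the gene lists were chosen with earlier results of these data known.

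Genes with fewer than 10 counts in total were removed (20396 genes). The tests used edgeR 4.0.16 under R 4.3.3 (TMM, quasi-likelihood, 1 model over 4 groups, Benjamini-Hochberg over 20444 genes, threshold 0.05). Normalized counts are counts divided by a library's scaled total relative to the geometric mean over libraries. An exact permutation test of each member was run in SciPy 1.17.1. The genome step of 1 library was located in 10408 well-expressed genes (mean count 100 or more). Replicate pairs differed by more than counting error (lowest chi-square per gene 1.58). Depth per library (16586254 to 30828427 counts) sets the precision of low genes. Steps were tested on simulated data.

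Genes were named by a rule: the 10 members, the 5 other family genes, up to 4 called genes per pathway list with the largest change plus Srebf1 and Srebf2, the 5 genes most like Scd2 and Fads2, overlapping genes, and markers. Insig2 was added after its values were seen, and 1 gene that the rule names is not reported here. Peds1 is listed in the table as Tmem189. Positions came from GENCODE M39 for 32487 genes. Alternatives were DESeq2 1.42.0, limma 3.58.1 voom, other normalizations and filters, a fold threshold, a replicate block, a GC-content offset for 18035 genes, only the libraries of a comparison, an offset for the lowered library, other lengths, and each replicate left out in turn.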

Additional observations from a re-analysis of the deposited data

Results flagged for a closer look

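A library far from the others of its group was found for 14 of 136 combinations of a named gene and a group, where chance gives about 1 in 20. Of these, 8 were sorafenib 48 hours replicate 2, the library with the lowered part. For members it read 2752 for Scd1 (others 4467 to 4693), 26741 for Scd2 (43374 to 44898), 4438 for Fads1 (7006 to 7413) and 3918 for Fads2 (6266 to 6501) in normalized counts. The same library gave 3916 for Cyb5r3 and 5116 for Srebf2, which lie in that part and where it was below the others, and 1282 for Tmem189 and 1506 for Acaa1a, which lie outside it and where it was above them. The remaining 6 were Fads2 in sorafenib 7 days replicate 4 (2940.3 against 3106 to 3131), Elovl3 in DMSO 48 hours replicate 4 (0.0 against 0.87 to 1.02), Hacd1 in sorafenib 7 days replicate 1 (586), Cyb5r3 in DMSO 48 hours replicate 4 (4456) and in sorafenib 7 days replicate 1 (6841), and Cyb5b in sorafenib 7 days replicate 4 (6134). The flag for Elovl3 rests on raw counts of 0 against 1 in each other library of the group, and carries no weight.

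The response to sorafenib at 7 days minus that at 48 hours, on the log2 scale, passed edgeR's interaction test for 21 of 34 named genes. Of all genes tested, 36.8% passed. Some of the 34 were named because their drug response was large, so the count cannot be weighed against that share. Among members it was -0.73 for Scd1, -0.65 for Scd2, -1.03 for Elovl6, -0.42 for Fads1, -0.97 for Fads2, -0.41 for Elovl5, -0.49 for Fads3, -0.82 for Elovl1 and 0.31 for Elovl4. Of the other family genes, Fads6 had -3.24. Among partners and regulators it was 0.21 for Tecr, -0.80 for Hacd1, -0.40 for Hacd3, -0.63 for Cyb5b, -0.86 for Insig1, -0.78 for Srebf2 and -0.18 for Srebf1. Among other desaturases and peroxisomal genes it was -0.68 for Degs1, -0.52 for Tmem189, 2.73 for Abcd2 and -0.30 for Abcd3. Elovl1, Cyb5b and Abcd2 were the genes of this set called in opposite directions at 48 hours and 7 days.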

How the results depend on the processing

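The number of members called with sorafenib was 10 under each alternative at both times but one: requiring a log2 change of 1 or more in size left 4 at 48 hours (2 higher, 2 lower) and 7 at 7 days, with 1 for the interaction and 1 for the change in DMSO. Over replicates left out in turn, the members called ranged from 8 to 9 for the interaction and from 3 to 7 for the change in DMSO. The latter count was 8 with only the libraries of the comparison and 7 without sorafenib 48 hours replicate 2. Scd over Fads per kilobase of exon gave log2 ratios of 1.31, 1.51, 1.13 and 1.33 in place of 1.61, 1.83, 1.42 and 1.66 (DMSO and sorafenib at 48 hours, then at 7 days), with the drug groups still higher. With the length of the longest transcript, 5 of 10 members kept their place in the order of sorafenib at 48 hours.

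Directions reversed for 10 values, and the reported value was called for none of them. These were Scd3 at 48 hours without sorafenib 48 hours replicate 3 (0.011, the range over replicates left out being -2.34 to 0.011), the interaction for Scd3 without sorafenib 48 hours replicate 4 (-2.59 to 0.23) and for Elovl3 with limma voom (0.12) or without DMSO 7 days replicate 4 (-1.30 to 0.039), and changes in DMSO for Elovl6 with library totals only (-0.036) or a GC-content offset (-0.037), Fads1 with that offset (0.017), Fads2 with library totals only (-0.0062) and Elovl2 without DMSO 48 hours replicate 4 or DMSO 7 days replicate 3 (-0.088 to 0.41). The Fads1 interaction also lost its call with at least 10 counts in every sample (adjusted p = 0.0504). Of the other values of family genes' log2 fold changes, 1533 kept direction and side of the threshold, 21 gained a call and 10 lost one. The cause was not tested.

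Deviations of same-numbered replicates had correlations of -0.047 to 0.008 at 48 hours and -0.007 to 0.122 at 7 days. At 7 days 2 of the 4 were over 0.1, and differently numbered pairs ran from -0.157 to 0.110. The numbers were not taken as pairs. With the replicate block, 10, 10 and 9 members were called at 48 hours, at 7 days and for the interaction, and 4 in DMSO with a block across all groups, chosen after seeing the data.

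Within the families, depth limits Elovl2, Elovl3, Scd3 and Scd4, with at most 27 counts in any library, and outside them Tecrl (at most 9) and Mlxipl (at most 13).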
